A study of Mus musculus with 1 sample.

Results

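This account concerns the enzymes that turn arachidonic acid into prostaglandins, thromboxane and leukotrienes, as read in RAW264.7 cells, a macrophage-like line of mouse origin. The set is 10 genes chosen by name: Ptgs1, Ptgs2, Ptges, Ptges2, Ptges3 and Tbxas1 of the cyclooxygenase branch, and Alox5, Alox5ap, Lta4h and Ltc4s of the 5-lipoxygenase branch. The platform's gene symbols gave a probe for 9 of the 10, with 1 probe each, out of 19321 named genes on the array. Ptgs1, the constitutive cyclooxygenase, had no named probe and is not analysed here. The study asked which genes the line needs to take up added peroxiredoxin, and set parental cells against lines mutagenised with ENU that had lost the uptake. A single one-colour array, of parental cells that had not been mutagenised, grown in medium with 10% FCS and with no stated stimulus, was analysed here. Arrays of mutant lines were not analysed here. With 1 array there is no comparison between lines, no spread between samples and no p-value.

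Arachidonic acid is cut from membrane phospholipids by phospholipases. Cyclooxygenases convert it to the unstable intermediate PGH2, from which separate terminal enzymes make PGE2, PGD2, prostacyclin or thromboxane. In the other branch 5-lipoxygenase, helped by its activating protein FLAP, makes leukotriene A4, which one hydrolase turns into LTB4 and a glutathione-adding synthase turns into LTC4. In macrophages the inducible cyclooxygenase and the inducible PGE2 synthase are known to be raised by bacterial products, and 5-lipoxygenase is known as an enzyme of myeloid cells.

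Signals are median pixel intensities of a spot at 635 nm, in arbitrary units, with no background subtracted. A gene was held against a pair of limits from the same array. The blank limit, 22.98, is the mean plus 2 SD of empty spots, and the receptor limit, 55.8, is the signal that 95% of 1221 probes for smell and taste receptors do not exceed, genes that macrophages are not known to depend on. Over the blank limit lay 72.8% of all named genes, over the receptor limit 42.7%, and the median gene read 40.1. A reading depends on the probe as well as on the transcript, so an order of signals between genes is not an order of transcript amounts. The macrophage label was borne out by 7 of 7 measured markers over the receptor limit, from the integrin chain Itgam at 109 to the lysozyme gene Lyz2 at 46513. Of 33 measured markers of other cell types, 1 passed it, the neutrophil alarmin gene S100a8 at 60.2. Over the blank limit were 17 of the 33, or 51.5%, beside 72.8% of all named genes.

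All 4 genes of the 5-lipoxygenase branch passed both limits, beside 72.8% and 42.7% of all genes, with signals from 228 to 1955 and a median of 374. Of the 5 measured genes of the cyclooxygenase branch, 4 were over the blank limit and 3 also over the receptor limit, with signals from 20.7 to 475 and a median of 74.0. The member between the limits was Ptges, the inducible PGE2 synthase, and the member not over the blank limit was Tbxas1, thromboxane synthase. At a stricter limit, the 99th percentile of the same receptor probes, which 27.5% of all genes passed, the counts were 4 of 4 and 1 of 5, as Ptgs2 and Ptges2 no longer passed. With so few genes and 1 array, these counts describe this array and carry no test of the difference between branches, and the medians describe each set of probes and are not compared.

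**Figure D1:**
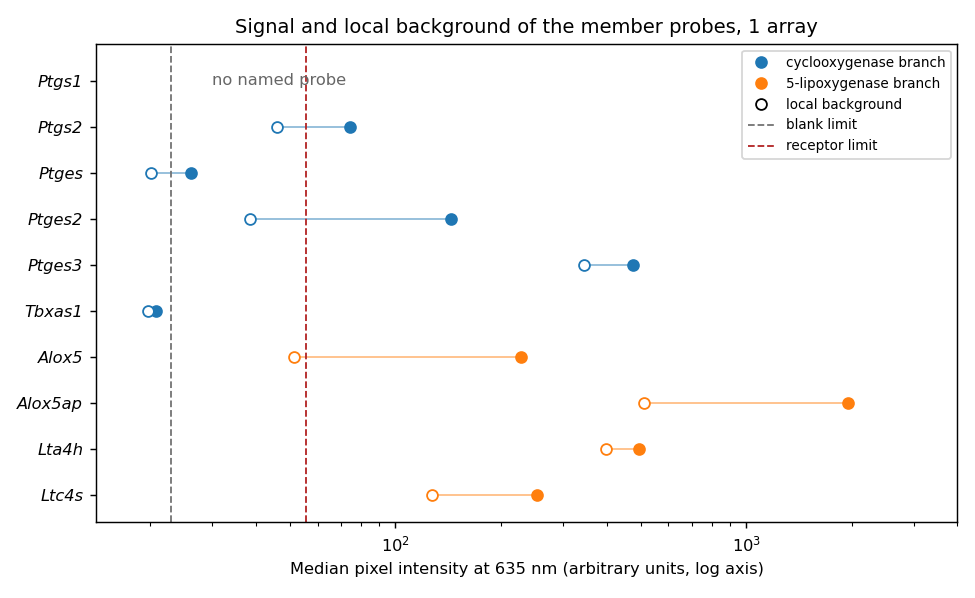
Signal (filled circles) and local background (open circles) of the 9 measured member probes on 1 parental array, in median pixel intensity on a log axis, with the blank limit at 22.98 and the receptor limit at 55.8 as dashed lines. All 4 genes of the 5-lipoxygenase branch lie to the right of both lines, while Tbxas1 at 20.7 lies left of both and Ptges at 26.2 lies between them.

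The DNA just before the start sites of some members is shown for orientation. Ptgs2 and Alox5 are the measured oxygenases that open the branches, and both passed both limits. Tbxas1 is thromboxane synthase, whose probe did not pass. Ptges, the member between the limits, is not shown. These are the 250 bases before the annotated RefSeq start in assembly GRCm38.p6, written 5′ to 3′ on the gene's strand. Capitals mark matches on either strand to TATAAA (the TATA box), GGGCGG (the GC box), CACGTG (the E-box), ACGTCA (a core of the cyclic AMP response element), TTGCGCAA (a palindrome of the kind bound by C/EBP factors) or GAGGAA (a core bound by PU.1 and other ETS factors).
Ptgs2, chr1:150099781-150100030, plus strand: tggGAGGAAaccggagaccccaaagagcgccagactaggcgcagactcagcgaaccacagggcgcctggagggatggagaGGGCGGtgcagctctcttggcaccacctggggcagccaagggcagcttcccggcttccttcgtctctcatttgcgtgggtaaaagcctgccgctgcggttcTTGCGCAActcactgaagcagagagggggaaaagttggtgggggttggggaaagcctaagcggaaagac
Alox5, chr6:116461179-116461428, minus strand: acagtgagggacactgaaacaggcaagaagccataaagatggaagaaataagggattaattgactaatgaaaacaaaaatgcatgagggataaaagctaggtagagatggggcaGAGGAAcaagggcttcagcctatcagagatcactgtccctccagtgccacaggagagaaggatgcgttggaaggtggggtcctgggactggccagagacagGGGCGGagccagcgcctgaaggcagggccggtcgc
Tbxas1, chr6:38918736-38918985, plus strand: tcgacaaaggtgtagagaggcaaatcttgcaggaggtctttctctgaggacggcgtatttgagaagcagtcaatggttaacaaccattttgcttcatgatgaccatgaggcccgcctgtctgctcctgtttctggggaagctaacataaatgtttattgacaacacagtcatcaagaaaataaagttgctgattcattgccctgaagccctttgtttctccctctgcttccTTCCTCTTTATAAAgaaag

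The Ptgs2 window held 1 GC box, 1 GAGGAA core and the TTGCGCAA palindrome, which begins 69 bases before the start and is present in 0.164% of the 32851 such windows of the table. The Alox5 window held 1 GC box, 35 bases before the start, and 1 GAGGAA core. The Tbxas1 window held TATAAA on both strands, overlapping each other as TTTATAAA, with a GAGGAA core on the opposite strand next to them. Windows matched 9 of the 10 members by symbol; Alox5ap had no entry. GAGGAA occurred in 6 of the 9 windows and in 23.3% of all windows, GGGCGG in 4 of 9 and 32.7%, TATAAA in 1 of 9 and 12.4%, CACGTG in 1 of 9 and 6.02%, and ACGTCA in 0 of 9 and 6.47%. A match is a string of letters and no measured site, and the array does not measure what these sequences do.

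In the cyclooxygenase branch, Ptgs2 (probe M300008277), the inducible cyclooxygenase that commits arachidonic acid to prostaglandins, read 74.0 with a local background of 45.9. That is 3.22 times the blank limit and 1.33 times the receptor limit. As high a reading was found in 0 of the 2736 blank spots and in 36 of the 1221 receptor probes, or 2.95%. The signal was 1.61 times its local background, while probes of like signal, within 1.2-fold, had a median ratio of 2.21. The brightest of its 8 neighbouring spots read 1966, and the part of neighbouring spots in its signal was not tested. With local background subtracted it read 28.2, against a receptor limit of 27.0 on that scale. Ptgs2 therefore lay clear of the blanks and close to the receptor limit. Whether the probe also binds transcripts of the related gene Ptgs1 was not tested.

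Of the 3 PGE2 synthases, the inducible membrane enzyme did not pass the receptor limit and the others did. Ptges (probe M300021408), the microsomal enzyme usually coupled to inducible cyclooxygenase, read 26.2 with a local background of 20.2, or 1.14 times the blank limit. Only 2 of the 2736 blanks read as high, whereas 313 of the receptor probes did, or 25.6%. With local background subtracted it read 6.03, against a limit of 5.87 from blanks treated the same way. Its 8 neighbouring spots had a median of 1279 and a maximum of 3246, and their part in its signal was not tested. Ptges was thus over the blanks by a narrow margin and not told apart from the receptor probes.

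The other PGE2 synthases passed both limits. Ptges2 (probe M200005811), a membrane-associated enzyme, read 144 with a background of 38.5, or 2.59 times the receptor limit. Ptges3 (probe M300012510), the cytosolic PGE2 synthase that is better known as p23, a co-chaperone of HSP90, read 475 with a background of 345. Its signal was 1.38 times the local background, lower than in all but 5.27% of probes of like signal, although the brightest of its 8 neighbouring spots read 101. Subtracting the background left 130, which was still over the receptor limit of 27.0 on that scale. Because Ptges3 has a general role in protein folding, its reading is not specific to prostaglandin synthesis.

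Tbxas1 (probe M300006951), the cytochrome P450 that makes thromboxane A2, read 20.7 with a local background of 19.7, or 0.902 times the blank limit. That is 0.0802 SD over the mean of the blanks, and 45.7% of the blank spots and 52.7% of the receptor probes read as high or higher. Its signal could not be told from an empty spot. A low reading can come from a probe that responds poorly as well as from a scarce transcript, and which applies was not tested.

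**Figure D2:**
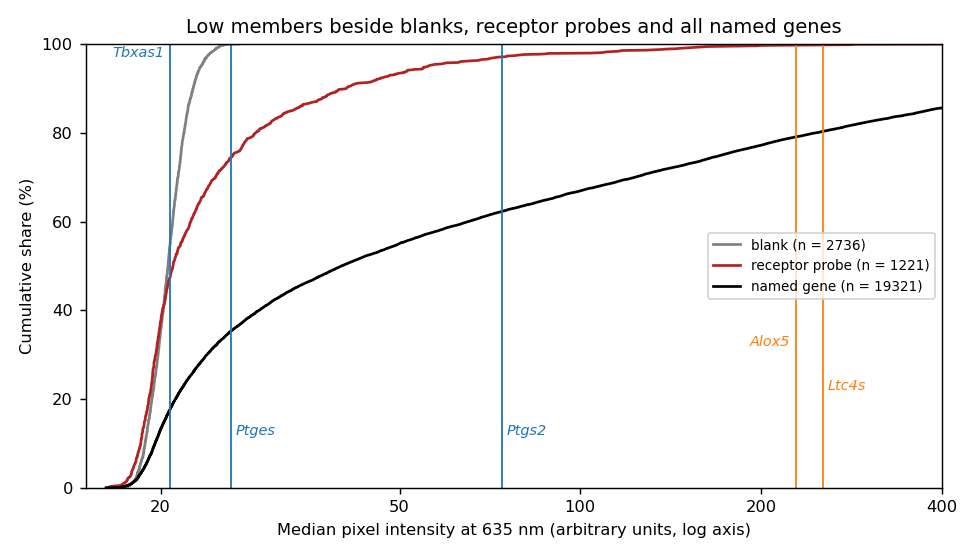
Cumulative share, in percent, of 2736 blank spots, 1221 receptor probes and 19321 named genes with a signal up to the value on the log axis, with vertical lines at the signals of Tbxas1, Ptges and Ptgs2 (blue) and Alox5 and Ltc4s (orange). Tbxas1 falls within the blanks, Ptges at the upper edge of the blanks but within the receptor probes, and Ptgs2 beyond all blanks, with 2.95% of receptor probes as high.

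In the 5-lipoxygenase branch every member read at least 4.09 times the receptor limit, with no background subtracted. Margins were smaller at the stricter limit, the 99th percentile of the receptor probes. There Alox5 lay 0.646 and Ltc4s 0.795 over the limit on the log2 scale. Alox5 (probe M300004733), the 5-lipoxygenase itself, read 228 with a local background of 51.5, or 9.94 times the blank limit and 4.09 times the receptor limit. Alox5ap (probe M200003779), which encodes FLAP, the membrane protein that presents arachidonic acid to 5-lipoxygenase, read 1955 with a background of 510, or 35.0 times the receptor limit. Both genes needed to make leukotriene A4 therefore gave clear signal.

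Both enzymes that act on leukotriene A4 also passed. Lta4h (probe M200000190), the hydrolase that makes LTB4 and is also an aminopeptidase, read 494 with a background of 400. Ltc4s (probe M200001586), the synthase that joins leukotriene A4 to glutathione, read 253 with a background of 127, or 4.54 times the receptor limit. Lta4h stood out for its background: its signal was 1.24 times the local value, lower than in all but 3.63% of probes of like signal, and the brightest of its 5 neighbouring spots read 701. With the background subtracted Lta4h read 94.7 and Ltc4s 126, both over the receptor limit of 27.0 on that scale.

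The authors' processed values for the same array are a rescaling of the same spot medians, so they are listed for reference and are no independent reading. Of the 9 measured members, 8 have a value in the authors' deposited table, beside 72.8% of all named genes. Alox5ap is listed at 940, Lta4h at 230, Ptges3 at 221, Ltc4s at 113, Alox5 at 101, Ptges2 at 60, Ptgs2 at 26 and Ptges at 3. Tbxas1 has an empty cell. Ptges thus stands 2 units over the table's minimum of 1.

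The other genes of the pathway, 62 measured of 68 listed by role, passed at shares near those of all genes: 46 were over the blank limit, or 74.2% against 72.8%, and 25 of these also over the receptor limit, or 40.3% against 42.7%. Their median was 37.0. The roles differed widely among themselves.

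Release of arachidonic acid had 6 of 16 measured genes over the receptor limit, 8 between the limits and 2 not over the blank limit. The share over the receptor limit was 37.5%, beside 42.7% of all named genes. Pla2g4a (probe M400005441), the cytosolic phospholipase A2 that prefers arachidonic acid, read 1427 with a background of 92.8. Pla2g4c read 102, the secreted phospholipases Pla2g12a and Pla2g5 read 274 and 67.8, the lysosomal Pla2g15 read 276, and the diacylglycerol lipase Daglb read 135. Pla2g7, the plasma platelet-activating factor hydrolase, and the secreted Pla2g10 read 22.1 and 18.8 and did not pass. The substrate-releasing step thus had one member far over both limits. Of 6 genes that return arachidonic acid or other fatty acids to phospholipids, 5 passed the receptor limit, beside 42.7% of all named genes. Among the 5 was Acsl4 at 146, which activates arachidonic acid as its CoA ester. Lpcat3 at 184 and Mboat7 at 85.2, which place polyunsaturated chains in phospholipids, also passed. Acsl3 read 200 and Mboat1 read 337, while Mboat2 at 22.9 did not pass the blank limit.

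Among the terminal prostanoid synthases outside the 10 genes, the haematopoietic PGD2 synthase stood over both limits. Hpgds (probe M200009443) read 1043 with a background of 292, or 18.7 times the receptor limit. The lipocalin-type PGD2 synthase Ptgds lay between the limits at 34.0, and so did prostacyclin synthase, Ptgis, at 34.9 with a background of 31.8. Of 4 measured genes of this kind, 1 passed the receptor limit, beside 42.7% of all named genes, and 3 lay between the limits. Hpgds and Ltc4s are also known from mast cells. Of 8 mast cell and basophil markers, 4 lay between the limits and 0 passed the receptor limit, beside 42.7% of all named genes. Their signals ran from 18.3 to 53.9, with the receptor tyrosine kinase gene Kit at 18.3 and the IgE receptor chain Fcer1a at 19.2. At the top was the protease gene Mcpt8 at 53.9, just under the receptor limit. The 6 measured platelet markers, of the cell type best known for thromboxane, also had 0 over the receptor limit and read from 18.8 to 43.9. Over the blank limit were 4 of them, or 66.7%, beside 72.8% of all named genes. Whether other cell types had a part in these signals was not tested.

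Breakdown of prostaglandins was covered as well. Hpgd (probe M200003692), the dehydrogenase that starts their inactivation, read 1330, and the reductases Ptgr1 and Ptgr2 of the next step read 272 and 350. Ptgr1 is also known to inactivate LTB4. The 2 transporters of the list, Slco2a1 for uptake and Abcc4 for export, lay between the limits at 24.3 and 41.8. Of the 5 genes of this list, 3 passed the receptor limit, or 60.0%, beside 42.7% of all named genes. These 3 were the enzymes of inactivation. All 5 were over the blank limit, beside 72.8% of all named genes.

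**Figure D3:**
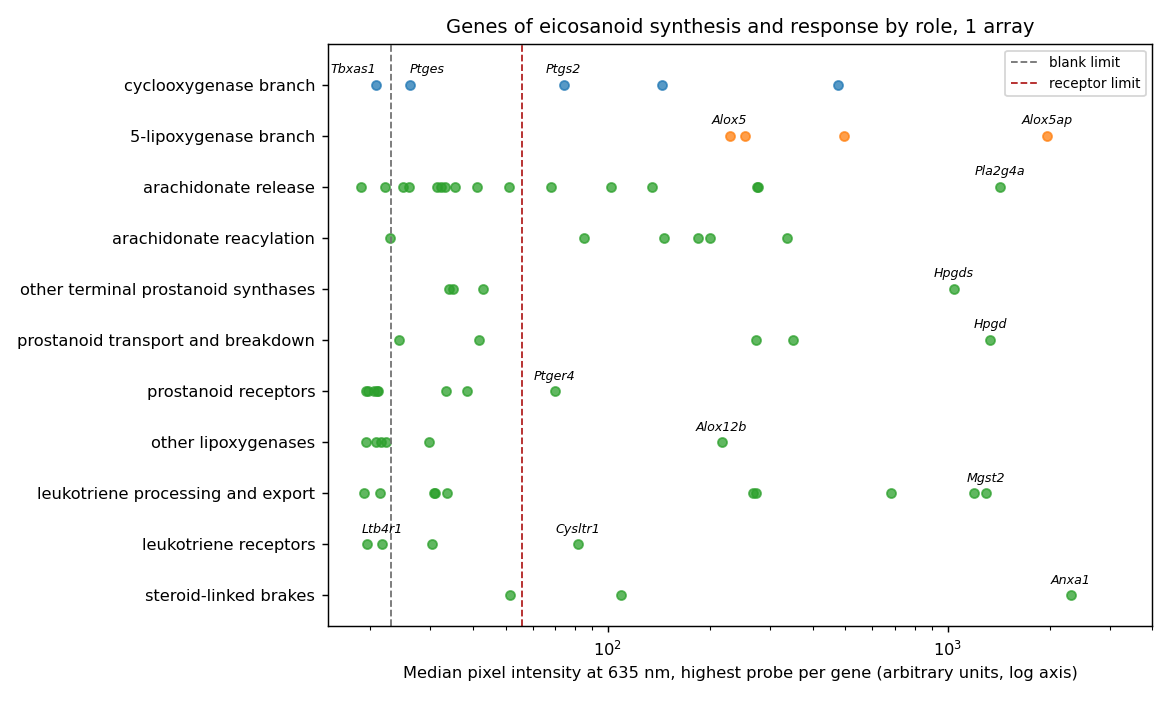
Signal of each measured gene, by its highest probe, in median pixel intensity on a log axis, arranged by role in eicosanoid synthesis and response on 1 parental array, with dashed lines at the blank limit of 22.98 and the receptor limit of 55.8. Pla2g4a at 1427, Hpgds at 1043 and Hpgd at 1330 lie far to the right, while 5 of 8 prostanoid receptors lie left of the blank limit.

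Past leukotriene A4, several routes gave signal. Mgst2 (probe M300019764) and Mgst3, microsomal glutathione transferases that can also make LTC4, read 1292 and 682. Abcc1, the pump that exports LTC4, read 267, and the dipeptidase Dpep2, which turns LTD4 into LTE4, read 272 with a background of 220, while Dpep1 at 21.4 did not pass. Ggt5, the gamma-glutamyl transferase that turns LTC4 into LTD4, lay between the limits at 30.8. Cotl1, a coactosin-like protein known to bind 5-lipoxygenase, read 1190 and 242 on its 2 probes. Cyp4f14, a P450 that hydroxylates LTB4, read 19.2 and did not pass, while Cyp4f18, the other P450 of this list, lay between the limits at 33.7. In this list 5 of 10 measured genes passed the receptor limit, beside 42.7% of all named genes. The blank limit was passed by 8 of the 10, beside 72.8% of all named genes. As a whole the list thus passed at shares near those of all genes.

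The other lipoxygenases were low but for 1 gene. Alox15, which makes hydroxy fatty acids in alternatively activated macrophages, read 19.4, Alox12 of platelets 21.5, Alox8 20.8 and Aloxe3 22.2 and 18.6 on its probes, and these 4 genes did not pass the blank limit. Alox12b, best known from the skin barrier, read 216 with a background of 69.4. Of the 6 genes, 2 were over the blank limit, beside 72.8% of all named genes. Alox12b alone was over both limits, beside 42.7% of all named genes.

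Receptors for the products mostly read low, with 7 of 12 measured genes not over the blank limit. Ptger1 and Ltb4r2 had no named probe. Over the blank limit were 41.7% of the measured receptors, beside 72.8% of all named genes. Over the receptor limit were 16.7%, beside 42.7%. Of 8 measured prostanoid receptors, 5 were not over the blank limit, 2 lay between the limits and 1 was over both. The latter was Ptger4, the EP4 receptor for PGE2, at 69.8 with a background of 30.6; 3.44% of receptor probes for smell and taste read as high. The EP2 receptor Ptger2 read 20.5, Ptger3 19.7, the PGD2 receptors Ptgdr and Ptgdr2 20.9 and 19.4, and the PGF2 alpha receptor Ptgfr 21.0, all not over the blank limit. The thromboxane and prostacyclin receptors Tbxa2r and Ptgir were among those between the limits, at 38.5 and 33.5. Of 4 measured leukotriene receptors, Cysltr1, a receptor for cysteinyl leukotrienes, passed the receptor limit at 81.4. Ltb4r1, the high-affinity receptor for LTB4, read 21.7 and Oxgr1 read 19.5, and neither passed the blank limit. Each product class, prostanoids and leukotrienes, thus had 1 measured receptor over the receptor limit, neither far beyond it.

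**Figure D4:**
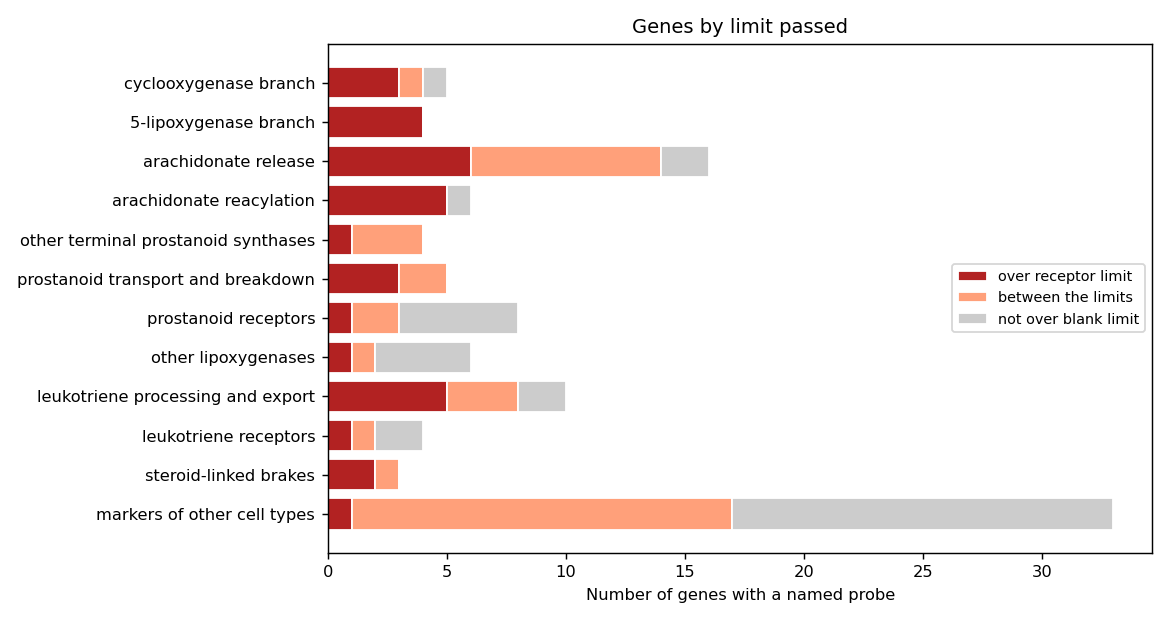
Number of genes with a named probe in each list, divided into those over the receptor limit (dark red), between the limits (light) and not over the blank limit (grey). The 5-lipoxygenase branch has 4 of 4 genes over the receptor limit, the cyclooxygenase branch 3 of 5, prostanoid receptors 1 of 8, and markers of other cell types 1 of 33. Of all named genes, 42.7% passed this limit.

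Genes tied to the restraint of the pathway by glucocorticoids passed the blank limit in 3 of 3 cases, beside 72.8% of all named genes. Over the receptor limit were 2 of the 3, beside 42.7% of all named genes. Anxa1, annexin A1, known as a glucocorticoid-regulated inhibitor of phospholipase A2 action, read 2302, and Tsc22d3, known as GILZ, read 109. The glucocorticoid receptor gene Nr3c1 was between the limits at 51.6.

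Set out by product, the array read each measured step as follows. For LTB4, Pla2g4a, Alox5, Alox5ap and Lta4h all passed the receptor limit, and for LTC4 so did Ltc4s in place of Lta4h. For PGD2, Pla2g4a, Ptgs2 and Hpgds passed it. For PGE2 the step after Ptgs2 was covered by Ptges2 and Ptges3 over the receptor limit and by Ptges between the limits. For thromboxane the last enzyme, Tbxas1, was not over the blanks. These are transcript readings, and neither enzyme amounts nor products were measured.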

How the data were processed

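Total RNA of parental RAW264.7 cells was amplified to amino allyl RNA, labelled with Cy5 and processed as the array maker Toray prescribes, per the labels' protocols. The deposited scanner file holds, per the file headers, the median intensity of each spot and of its local background, from a scan at 3 gains; the sources used here do not say how the gains were joined. No spot carried a bad flag, which is 0 of 27456. The authors' deposited table of processed intensity was set against the scanner values. Its values follow the spot median minus the blank mean, 20.6, times 0.486 (mean over 2987 probes, SD 0.000364), its median is 25, and the basis of that scale stays unknown. It has no direction.

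Probes were named from the platform annotation, with symbols brought up to date by gene identifier from RefSeq's table for GRCm38.p6; of 23473 probes 20690 had 1 symbol, 0 had several and 2783 had none, and 20556 matched. No build is named for the probes. A gene took its highest probe. The blank limit left out 5% of the 2736 blanks at each end; 7.13% of all blanks exceeded it. Alternatives are given below; normexp correction used limma 3.58.1 with an offset of 50, and figures used matplotlib 3.10.9.

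The 10 genes, the lists by role and the markers were chosen with earlier results of these data known. All members are named with their probes. Of other pathway genes, those over the receptor limit or not over the blank limit could be named, with 12 further genes always given. Tbxa2r, Ptgir, Ggt5, Cyp4f18, Slco2a1, Abcc4 and Nr3c1 were added after their values were seen. Only 1 array was used, and the number of arrays limits the precision.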

Additional observations from a re-analysis of the deposited data

How the results depend on the processing

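At the blank limit the counts of both branches stayed at 4 in every planned setting run except the receptor limit. There Ptges dropped out, at -1.09 on the log2 scale from that limit, and the cyclooxygenase count fell to 3. In several other settings the cyclooxygenase count of 4 rested on a very narrow margin of Ptges. On the log2 scale Ptges passed by 0.00366 with normexp, 0.0199 with the No probe spots and 0.0381 with local background subtracted. The settings were 1 or 3 SD, untrimmed blanks, their 99th percentile, the negative controls, the No probe spots, blanks of each block, normexp, subtraction of the local background, both readings of the authors' table and the rules for several probes. Apart from the receptor limit, these settings called from 63.2% of all genes (local background subtracted) to 79.1% (negative controls). The other pathway genes ranged from 41 to 52 of 62 and fell to 25 at the receptor limit, by its construction. Settings at the receptor limit were chosen after the data were seen. With the 99th percentile of the receptor probes, 146, in place of the 95th, the cyclooxygenase branch fell from 3 to 1, while the share of all genes fell from 42.7% to 27.5%, since Ptgs2, at -0.98 on the log2 scale from that limit, and Ptges2, at -0.017, no longer passed, while the 5-lipoxygenase branch stayed at 4. Of the other single calls of members, 115 at the blank limit and 52 at the receptor limit kept their side, and Tbxas1 passed in none of the settings run. These counts overstate the check. Each member has 1 probe, so the rules for several probes could not change its call. The authors' table rescales the same spot medians, so its readings are not independent. At the receptor limit, normexp and subtraction of the local background called the same share of all genes, 41.3%. Tbxas1 has an empty cell in the authors' table and so no value there. No paired analysis was possible because there is 1 sample.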

Other observations

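Lipid mediator genes outside the cyclooxygenase and 5-lipoxygenase branches were read from lists drawn up after the members' values had been seen. Of 7 genes for platelet-activating factor, a phospholipid signal made after the same phospholipase step, 7 were over the blank limit and 5 of these over the receptor limit. Among all named genes, 72.8% and 42.7% passed these limits. Pafah1b1, Pafah1b2 and Pafah1b3, subunits of the intracellular hydrolase, read 475, 575 and 315, the acyltransferase Lpcat1 read 234 and the hydrolase Pafah2 read 59.0. Lpcat2, the acyltransferase with known activity for platelet-activating factor in macrophages, lay just under the receptor limit at 54.8, and the receptor Ptafr read 37.0. Of 5 endocannabinoid genes, Naaa, a lysosomal amidase, read 433, and the receptor Cnr2 of immune cells read 64.0, while Cnr1, the receptor of neurons, did not pass the blank limit at 18.1.

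Of 6 genes for epoxide and hydroxy fatty acids, 3 were over the blank limit, beside 72.8% of all named genes. Only 1 of them, the epoxide hydrolase Ephx1 at 160, was also over the receptor limit, beside 42.7% of all named genes. Ephx2, the soluble form, read 23.9. The receptors Fpr2 and Cmklr1, which bind lipoxin and resolvin E1 among other ligands, read 27.8 and 20.6. Of 5 measured kinases known to act on cytosolic phospholipase A2 or 5-lipoxygenase, 4 passed the receptor limit, beside 42.7% of all named genes. They were Mapkapk2 at 704, Mknk1 at 133, the p38 kinase gene Mapk14 at 105 and Prkaca at 64.3. Mapkapk3 lay between the limits at 26.6.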
